A study of Mus musculus with 16 samples.

Results

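The olfactory bulb was compared with the subependymal zone in control mice, using 10 of the 16 arrays of the series: 5 of the olfactory bulb (OB) and 5 of the subependymal zone (SEZ). The members were chosen by their labels alone, and all 19938 genes with 1 gene symbol on the array were examined. The SEZ is the niche along the lateral ventricle in which neural stem cells divide in the adult brain, and the OB is the first relay of smell, to which the neurons born in that niche migrate. The series text names the core of the bulb as the region taken.

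All mice were 2.5 months old, were listed as untreated and had a mixed C57BL/6 and CD1 background. Control mice of the OB group and of SEZ replicates 1 to 4 had the genotype GlastCreERT2/Brg1fl/+, that is, a recombinase that tamoxifen activates, driven from the Glast (Slc1a3) locus of astroglia and stem cells, and 1 floxed copy of the chromatin remodeller gene Brg1. SEZ control replicate 5 was labelled GlastCreERT2/Brg1+/+, with no floxed copy. The recombinase is therefore shared by both tissues. The floxed copy was in all OB control samples but only in SEZ replicates 1 to 4, so it was not fully balanced between the tissues. Whether tamoxifen was given could not be settled from the labels. The labels list no pooling of animals, and they give the sex as not determined. Xist, which silences an X chromosome in females, was at 11.82 to 12.44 in arrays 1 and 4 of both tissues and at 5.72 to 6.80 in arrays 2, 3 and 5, and the Y-linked gene Kdm5d was at 5.61 to 6.29 and 8.55 to 9.02 in the same arrays, so each tissue held the same split. The other 6 arrays came from mice with 2 floxed copies (GlastCreERT2/Brg1fl/fl, called cKO) and enter only the estimate of the spread and 1 side-by-side comparison.

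Inhibitory neurons that use the transmitter GABA are abundant in both tissues. In the bulb, granule cells and periglomerular cells are inhibitory interneurons, and mitral and tufted cells are the excitatory output neurons that send smell information to the cortex. The SEZ lies between the ciliated ependymal cells that line the ventricle and the striatum, whose projection neurons read dopamine through the receptors of the genes Drd1 and Drd2. Neuroblasts leave the SEZ, travel in the rostral migratory stream and settle in the bulb as granule and periglomerular cells, and factors such as Pax6, Dlx2 and Sp8 are known for setting their identity.

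Levels are log2 values of the array, given as mean ± SD over 5 arrays. A difference is the OB mean minus the SEZ mean on the log2 scale with its standard error, so a positive number is higher in OB and a difference of 1 is a 2-fold change. A gene was called when its p-value from limma, adjusted over all 19938 genes, was under 0.05. Levels of 280 genes of taste, pheromone, keratin-associated and defensin families served as a low-level reference, whose 95th percentile was 7.06 in OB and 6.99 in SEZ. Where the mean of the lower tissue lay at or under it, levels are given with no fold change, since differences are understated there.

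Of 19938 genes, 5491 were called, which is 27.5% of those tested: 2512 higher in OB (12.6%) and 2979 lower (14.9%). The 5 OB and 5 SEZ values did not overlap in 4359 genes, or 21.9%. A difference of 2-fold or more was called in 460 genes higher and 506 genes lower in OB, of 4-fold or more in 109 and 107, and of 8-fold or more in 25 and 29. The median difference over all genes was 0.0034. Fewer cells of a type and less RNA per cell cannot be told apart in such tissue samples. The labels call the samples biological replicates and do not name the animals, so the p-values measure the spread between these samples.

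Among genes measured above the low-level reference in both tissues, the largest difference higher in OB was that of Calb2, which encodes the calcium-binding protein calretinin of granule and periglomerular cells. Calb2 read 12.70, 12.79, 12.82, 12.51 and 12.58 in OB arrays 1 to 5 and 8.46, 8.64, 7.91, 8.41 and 8.25 in SEZ arrays 1 to 5. All bulb values were above all SEZ values, and the difference of 4.34 ± 0.15, adjusted p = 1.19e-12, was 20.3-fold. The largest in the other direction was that of Drd2, with 8.53, 8.18, 8.52, 8.09 and 7.99 in OB and 13.43, 12.98, 13.50, 13.14 and 13.05 in SEZ. The difference was -4.96 ± 0.15, adjusted p = 2.17e-13, or 31.2-fold lower in OB. Next in OB came Lgr5, a receptor for R-spondins that strengthens Wnt signalling, at 4.06 ± 0.09, adjusted p = 3.31e-15 (16.7-fold), and Doc2g, a relative of synaptic calcium sensors, at 3.81 ± 0.11. Shisa3 (3.69 ± 0.12), Ms4a15 (3.66 ± 0.12), the tubulin gene Tuba8 (3.57 ± 0.13), Nrip3 (3.56 ± 0.15), the oxygen-sensing hydroxylase gene Egln3 (3.15 ± 0.13), the phosphatase gene Ppm1e (3.13 ± 0.14) and the copine gene Cpne4 (3.08 ± 0.13) followed. Grm2, Lgr6, Gng4, Kcnab3 and Th, which are given further on, lay among these in size. On the SEZ side stood Rgs9, a brake on dopamine receptor signalling (-3.91 ± 0.10), the vesicle trafficking gene Mal2 (-3.49 ± 0.30) and Caln1, a calmodulin relative (-3.45 ± 0.14). Mal2 varied widely among the bulb arrays, with 9.78, 9.26, 8.58, 7.55 and 8.86, against 12.32, 12.18, 12.24, 12.41 and 12.31 in SEZ, yet its groups did not overlap.

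**Figure D1:**
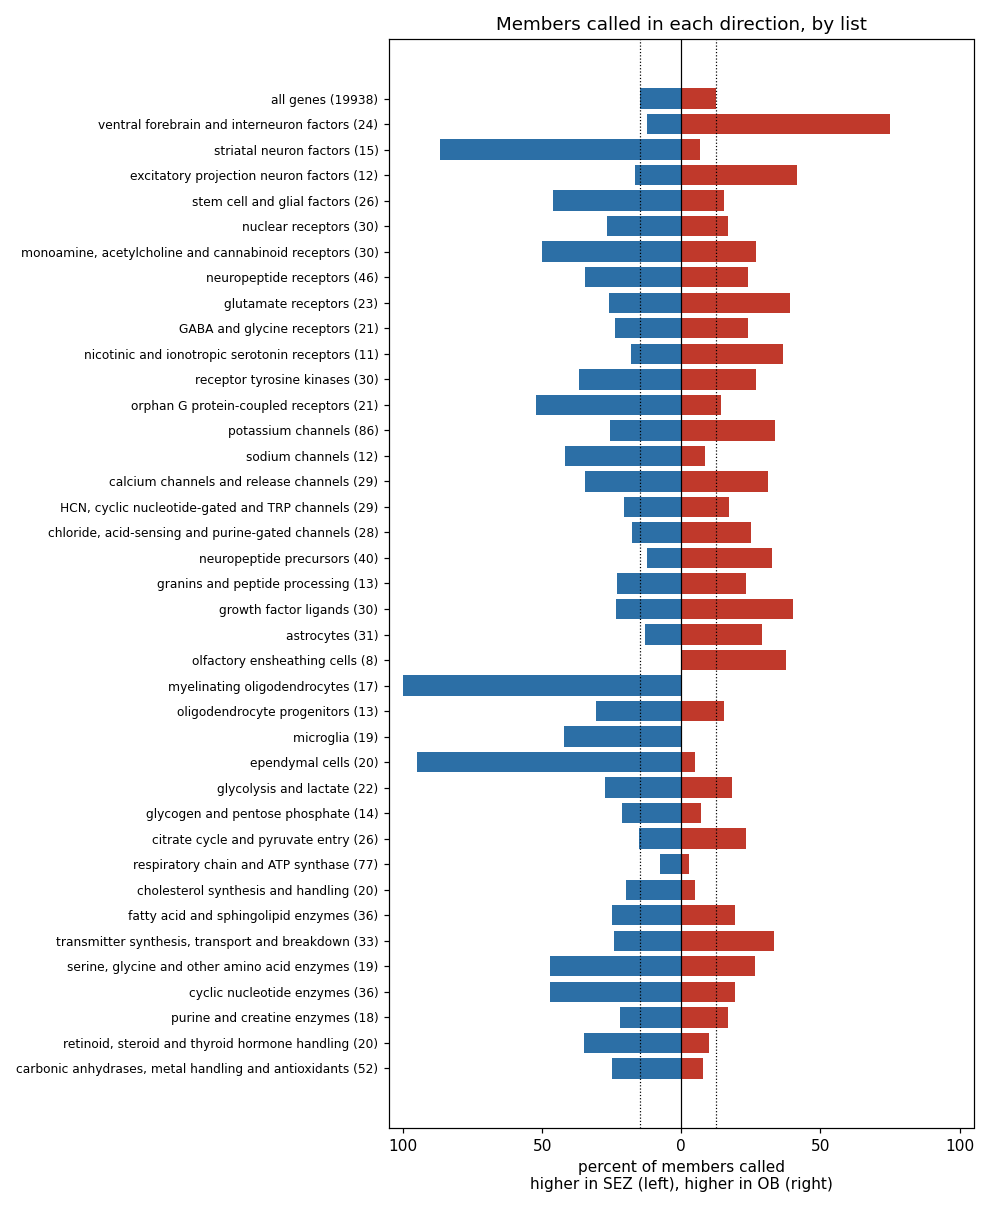
Percent of measured members of each gene list called higher in OB (right, red) or higher in SEZ (left, blue), with the number of measured members in parentheses; dotted lines mark the shares over all 19938 genes (12.6% and 14.9%). All 17 measured myelin genes were called higher in SEZ, and 69 of 77 respiratory chain genes were not called.

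The labelled tissues were described by markers of the cells they hold. The marker lists were chosen with earlier results of these data known, so their counts are no independent check of the tissues. Granule and periglomerular markers had 9 of 11 measured members higher in OB and 0 lower, with a median of 2.67. Frmd7, known from retinal starburst cells and inherited nystagmus, was at 11.09 ± 0.10 in OB and 6.09 ± 0.22 in SEZ (adjusted p = 5.06e-16). The carboxypeptidase gene Cpa6 was at 11.06 ± 0.18 in OB and 6.23 ± 0.10 in SEZ (adjusted p = 1.80e-16), and the calcium sensor gene Scgn at 9.99 ± 0.31 in OB and 5.57 ± 0.28 in SEZ (adjusted p = 1.09e-12). Mitral and tufted markers had 7 of 10 measured members higher in OB and 0 lower, and Eomes, a T-box factor of these output neurons, was at 10.49 ± 0.25 in OB and 6.29 ± 0.15 in SEZ (adjusted p = 1.83e-12). In SEZ, 19 of 20 ependymal genes were higher, and 10 of 11 genes of dividing cells, among them the cyclin gene Ccna2 at -1.52 ± 0.085, adjusted p = 3.11e-10. The proliferation marker Mki67 was at 6.60 ± 0.15 in OB and 7.95 ± 0.10 in SEZ (adjusted p = 3.34e-09). All 15 measured markers of striatal projection neurons were higher in SEZ, with a median of -3.55, and the sodium channel subunit gene Scn4b was at 6.54 ± 0.11 in OB and 12.62 ± 0.22 in SEZ (adjusted p = 1.03e-15). Over the 15 genes the mean level was 8.58 to 8.70 in the OB arrays and 11.88 to 12.11 in the SEZ arrays. How far striatum next to the niche entered the SEZ samples was not tested.

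Some markers differed among arrays of the same tissue. Slc17a7, the vesicular glutamate transporter of cortical and mitral neurons, read 8.74, 10.58, 8.44, 11.06 and 8.98 in SEZ arrays 1 to 5, and Tbr1, a factor of excitatory neurons, read 6.63, 8.17, 6.46, 8.62 and 6.91. SEZ arrays 2 and 4 were the high ones for both. The same arrays were high for Ttr, the thyroxine carrier made by choroid plexus, with 9.20, 10.83, 7.46, 10.64 and 8.003, and low for the mitral cell cadherin gene Cdhr1, with 9.56, 7.46, 9.43, 7.99 and 9.52. Among bulb arrays, Omp, the marker of olfactory sensory neurons, read 10.38, 10.73, 9.82, 8.86 and 7.36, and S100a5 of the same cells read 10.71, 10.82, 10.55, 9.10 and 8.24. Array 5 was lowest for both and overlapped with SEZ for Omp. Of 9 markers of these neurons, 3 were called higher in OB and 2 lower, the latter being Ano2, at 7.04 ± 0.14 in OB and 9.61 ± 0.12 in SEZ (adjusted p = 2.60e-13), and the cyclase gene Adcy3 (-0.92 ± 0.16, adjusted p = 2.92e-04), and 3 in all were called without OB arrays 1, 2 and 3. Omp was called higher in OB at 2.09 ± 0.46, adjusted p = 0.00221, but not without OB arrays 1, 2 and 3, at 0.77. Those arrays were the highest bulb arrays for Omp, so leaving them out lowers its difference by construction. The connective tissue gene Dcn was highest in bulb arrays 1 and 2, with 10.09, 10.32, 8.32, 8.53 and 7.79. Meningeal fibroblast markers had 0 of 10 called (limma, 1 or 2 called when OB array 3 or 5 or SEZ array 1 was left out, and 3 with the replicate number as a block), blood markers 0 of 2, choroid plexus 4 of 9 lower in OB, and endothelial and mural markers 7 of 15 lower in OB (4 called without SEZ arrays 2 and 4). At an unadjusted p under 0.05, 3 of 10 meningeal and 0 of 2 blood markers passed in limma. A second axis of variation separated arrays 1 and 3 from 2, 4 and 5 in both tissues and held 14.6% of the variance, against 69.4% for the axis that separated the tissues.

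**Figure D2:**
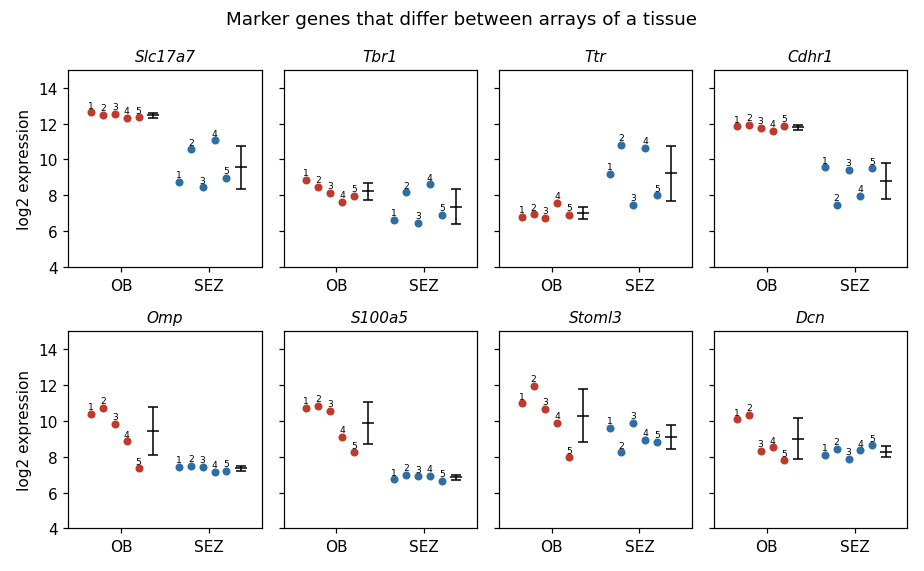
Log2 expression of 8 marker genes in the 5 OB and 5 SEZ control arrays (numbered points), with mean and SD beside them. SEZ arrays 2 and 4 are high for Slc17a7, Tbr1 and Ttr and low for Cdhr1, and OB array 5 is lowest for Omp, S100a5, Stoml3 and Dcn among the bulb arrays.

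Transcription factors of ventral forebrain interneurons had 18 of 24 measured members higher in OB and 3 lower, with a median of 1.05. Dlx1, a homeobox factor of inhibitory interneurons, read 12.21, 12.07, 12.20, 12.12 and 12.17 in OB and 10.04, 9.67, 10.31, 9.53 and 9.65 in SEZ. All bulb values lay close together and above all SEZ values, and the difference was 2.31 ± 0.12, adjusted p = 1.12e-10 (4.96-fold). Its neighbour Dlx2 was at 1.64 ± 0.13 and Dlx5 at 1.06 ± 0.20, while Dlx6 was slightly lower in OB at -0.20 ± 0.073, adjusted p = 0.0487, with overlapping groups. The Dlx6 call was lost without OB array 2, 4 or 5 or SEZ array 2, 4 or 5 (adjusted p up to 0.132 from limma), and with the replicate number as a block its adjusted p from limma was 0.122. Tshz1, a zinc finger factor needed by granule cells, read 11.83, 11.84, 11.94, 12.02 and 11.95 in OB and 9.80, 9.81, 9.68, 9.85 and 9.84 in SEZ. This gave 2.12 ± 0.059, adjusted p = 5.14e-14, with little spread in either tissue. Nr4a2, a nuclear receptor of dopamine neurons, was at 2.48 ± 0.34 and was less even in SEZ, with 7.69, 8.58, 7.44, 9.75 and 8.05. Sp8, which marks a class of bulb interneurons, was at 9.44 ± 0.11 in OB and 6.77 ± 0.24 in SEZ (adjusted p = 4.89e-12). Its relative Sp9 was at 0.88 ± 0.10, and Etv1 at 0.85 ± 0.10. Pax6, which specifies the dopaminergic periglomerular cells, was at 1.79 ± 0.10, and Zic1 and Zic2, zinc finger factors of periglomerular cells, at 2.09 ± 0.12 and 1.77 ± 0.20. Meis2, already at 13.24 ± 0.044 in SEZ, was higher in OB by only 0.43 ± 0.064. Prox1, at -1.23 ± 0.082, adjusted p = 3.27e-09, was the member furthest below 0, and Vax1 (0.003 ± 0.071) and Sox11 (0.17 ± 0.16) were not called.

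Factors of striatal neurons went the other way, with 1 of 15 measured members higher in OB and 13 lower and a median of -1.85. Rarb, a retinoic acid receptor, read 8.11, 8.17, 8.20, 8.16 and 8.02 in OB and 11.93, 11.58, 11.76, 11.63 and 11.52 in SEZ. The arrays of each tissue lay close together, and the difference was -3.55 ± 0.10, adjusted p = 4.45e-14 (11.7-fold lower in OB). Its dimer partner gene Rxrg followed at -2.57 ± 0.085, then Ebf1, a factor of striatal neuron differentiation, at -2.32 ± 0.15, Foxp1 at -2.30 ± 0.085 and the speech-related Foxp2 at -2.17 ± 0.11. Isl1, a LIM factor of Drd1-bearing neurons, was at 6.35 ± 0.18 in OB and 8.67 ± 0.20 in SEZ (adjusted p = 3.58e-11), and Six3 at 6.76 ± 0.19 in OB and 8.62 ± 0.28 in SEZ (adjusted p = 6.68e-09). Bcl11b, a regulator of striatal neuron maturation, had a smaller difference of -0.79 ± 0.091. Mef2c, a factor of synapse number, was the exception and was higher in OB at 0.78 ± 0.062, adjusted p = 2.59e-08.

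Of 12 measured factors of excitatory projection neurons, 5 were higher in OB and 2 lower. Tbx21, a T-box factor of mitral and tufted cells, read 9.50, 9.86, 9.14, 9.74 and 9.64 in OB and 7.72, 6.72, 7.49, 7.29 and 7.29 in SEZ, a difference of 2.27 ± 0.17, adjusted p = 1.23e-08, and the groups did not overlap. Neurod1 was at 7.39 ± 0.38 in OB and 5.33 ± 0.12 in SEZ (adjusted p = 1.07e-08). Emx2, a factor of the dorsal telencephalon and its stem cells, was lower in OB at -0.999 ± 0.14, and so was Fezf2 of deep cortical neurons at -0.47 ± 0.10. Tbr1, high in SEZ arrays 2 and 4, was not called at 0.86 ± 0.34, adjusted p = 0.0760. Those arrays were singled out because Tbr1 and Slc17a7 were high in them, so leaving them out raises the Tbr1 difference by construction. The difference was then 1.55 and was called, as it was without array 2 (1.06) or array 4 (1.17) alone. These calls are no independent support for a difference.

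The list of stem cell and glial factors had 4 of 26 measured members higher in OB and 12 lower, a median of -0.28. It also holds factors of neurons, such as Lhx6 and Lhx8. The Id genes, inhibitors of basic helix-loop-helix factors and targets of BMP signalling, did not move as one. Id4 read 9.67, 9.90, 9.01, 9.72 and 9.81 in OB and 11.46, 11.66, 11.33, 11.60 and 11.67 in SEZ, with bulb array 3 the lowest, and was 3.79-fold lower in OB (-1.92 ± 0.17, adjusted p = 1.01e-07). Id3 was at -0.66 ± 0.11 and Id1 at -0.40 ± 0.14, adjusted p = 0.0400, a call lost without OB array 1, 3, 4 or 5 or SEZ array 2, 4 or 5 (up to 0.0982), whereas Id2 was higher in OB at 0.69 ± 0.11, adjusted p = 8.23e-05. Gli3, a repressor of the hedgehog pathway, was lower in OB at -1.30 ± 0.10. Lhx6, a factor of ventral interneurons, was at -1.07 ± 0.11, and Lhx8, a factor of cholinergic neurons, at 6.92 ± 0.17 in OB and 7.91 ± 0.056 in SEZ (adjusted p = 1.06e-08). Mycn was higher in OB at 0.74 ± 0.12. The stem cell factor gene Sox2 (0.12 ± 0.076) was not called.

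Nuclear receptors, which switch genes in response to hormones and lipids, had 5 of 30 measured members higher in OB and 8 lower. Pparg, the fatty acid sensor best known from fat cells, read 9.83, 9.54, 9.77, 9.51 and 9.76 in OB and 7.59, 7.32, 7.32, 7.24 and 7.27 in SEZ. The groups were far apart, and the difference was 2.33 ± 0.10, adjusted p = 1.07e-11 (5.04-fold). Esrrg, an estrogen-related receptor, was at 0.90 ± 0.07. Besides Rarb and Rxrg, the thyroid hormone receptor gene Thrb (-1.66 ± 0.085) and the progesterone receptor gene Pgr (-1.22 ± 0.10) were lower in OB.

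**Figure D3:**
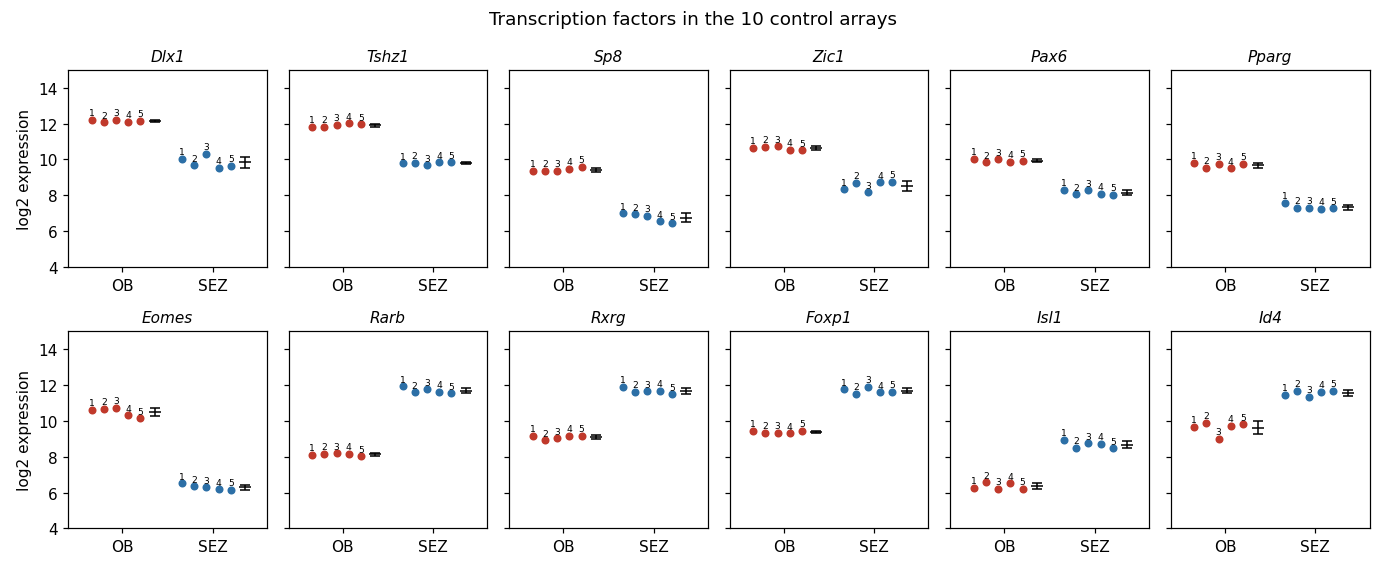
Log2 expression of 12 transcription factor genes in the 5 OB and 5 SEZ control arrays (numbered points), with mean and SD beside them. In each panel the OB and SEZ arrays do not overlap; Dlx1, Tshz1, Sp8, Zic1, Pax6, Pparg and Eomes are higher in OB, and Rarb, Rxrg, Foxp1, Isl1 and Id4 are higher in SEZ.

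Receptors for monoamines, acetylcholine and cannabinoids had 8 of 30 measured members higher in OB and 15 lower. Of 5 genes for dopamine receptors, 4 were lower in OB. Drd1 read 7.70, 8.11, 8.28, 8.21 and 7.91 in OB and 12.57, 12.37, 12.50, 12.65 and 12.46 in SEZ, 22.2-fold lower in OB (-4.47 ± 0.10, adjusted p = 3.31e-15), and Drd3 was at -1.69 ± 0.13. Drd5 was at 6.95 ± 0.13 in OB and 7.69 ± 0.30 in SEZ (adjusted p = 6.90e-05), and Drd4 was not called (-0.032 ± 0.10). Serotonin receptors split, with 5 of 14 higher and 5 lower in OB. Htr1b, an inhibitory receptor on axon terminals, read 7.67, 7.58, 7.46, 7.84 and 7.57 in OB and 11.13, 11.27, 11.16, 11.55 and 11.47 in SEZ. It was 12.9-fold lower in OB (-3.69 ± 0.093, adjusted p = 1.31e-14). Htr2c, an excitatory receptor, was at -2.80 ± 0.24 and spread over the bulb arrays with 8.86, 8.26, 7.88, 6.999 and 8.22, and Htr1d was at -1.87 ± 0.15 and Htr6 at -1.62 ± 0.10. Htr1f, at 1.28 ± 0.12, adjusted p = 1.99e-07, led the serotonin receptors higher in OB.

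Muscarinic receptors for acetylcholine split as well. Chrm2 read 11.55, 11.88, 11.58, 12.08 and 12.05 in OB and 8.14, 9.44, 8.29, 9.65 and 9.31 in SEZ, where arrays 1 and 3 were lowest. It was higher in OB by 2.86 ± 0.27, adjusted p = 2.02e-07 (7.26-fold), and Chrm3 by 1.46 ± 0.19. Chrm4, which opposes dopamine signals in striatal neurons, was lower in OB at -0.65 ± 0.11, and Chrm1 was not called (-0.15 ± 0.091). The cannabinoid receptor gene Cnr1 was lower in OB at -1.75 ± 0.16, adjusted p = 1.35e-07, and the adrenergic receptor gene Adra2c at -1.56 ± 0.11.

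Receptors for neuropeptides had 11 of 46 measured members higher in OB and 16 lower. Vipr2, a receptor for vasoactive intestinal peptide, read 11.37, 11.04, 11.52, 11.23 and 11.29 in OB and 7.38, 6.76, 7.22, 6.64 and 6.76 in SEZ, where it lay at the low-level reference (adjusted p = 4.50e-13). Prokr2, the receptor whose ligand attracts neuroblasts toward the bulb, read 11.36, 10.97, 11.16, 11.34 and 11.55 in OB and 8.88, 8.40, 9.28, 8.25 and 8.47 in SEZ. Its difference was 2.62 ± 0.18, adjusted p = 4.26e-09 (6.15-fold). The corticotropin-releasing hormone receptor gene Crhr1 was at 2.06 ± 0.076 and the cholecystokinin receptor gene Cckbr at 1.93 ± 0.10. Lower in OB were the kappa opioid receptor gene Oprk1, at 6.38 ± 0.29 in OB and 9.66 ± 0.21 in SEZ (adjusted p = 5.58e-12), and Mchr1, a receptor for melanin-concentrating hormone found on cilia of neurons, at -1.76 ± 0.10. The substance P receptor gene Tacr1 was not called (0.057 ± 0.094).

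Glutamate receptors had 9 of 23 measured members higher in OB and 6 lower. The metabotropic receptors of the same subgroup went in opposite directions. Grm2, which dampens glutamate release, read 11.47, 11.32, 11.46, 11.24 and 11.06 in OB and 8.14, 7.58, 7.54, 7.75 and 7.48 in SEZ. It was 12.2-fold higher in OB (3.61 ± 0.12, adjusted p = 6.10e-13). Grm3, its closest relative, read 10.34, 10.63, 10.16, 10.30 and 10.43 in OB and 12.19, 12.41, 12.21, 12.31 and 12.22 in SEZ, and was 3.73-fold lower in OB (-1.90 ± 0.095, adjusted p = 7.69e-11). Grm8 was higher in OB at 1.89 ± 0.16, and Grm5 (-0.83 ± 0.062) and Grm7 (-0.85 ± 0.11) were lower. Among channel subunits, the AMPA receptor gene Gria4 was higher in OB at 1.01 ± 0.082, and Grid1, which binds cerebellins at synapses, was lower at -1.11 ± 0.073. The NMDA receptor gene Grin2b was not called (0.0074 ± 0.12).

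Alpha subunits of the GABA receptor differed in direction. Gabra5 read 12.51, 12.65, 12.66, 12.67 and 12.77 in OB and 10.54, 10.89, 10.10, 11.11 and 11.15 in SEZ and was higher in OB by 1.89 ± 0.18, adjusted p = 3.02e-07, and Gabra3 by 1.42 ± 0.10. Gabra4 (-0.92 ± 0.10) and the delta subunit gene Gabrd (-1.14 ± 0.12), which form receptors outside synapses in several brain regions, were lower in OB, as was Gabrg3 (-1.45 ± 0.13). Gabra2 was not called (0.091 ± 0.085). In all, 5 of 21 GABA and glycine receptor genes were called in each direction.

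Nicotinic and ionotropic serotonin receptors had 4 of 11 measured members higher in OB and 2 lower. Chrna3 was at 8.46 ± 0.22 in OB and 6.30 ± 0.19 in SEZ (adjusted p = 1.82e-10) and its partner subunit gene Chrnb4 was higher in OB at 1.82 ± 0.084, adjusted p = 2.91e-11. Chrna4, the common brain subunit, was lower in OB at -1.28 ± 0.15, and Chrna7 at -0.60 ± 0.11. Htr3a, a serotonin-gated channel of interneurons, was higher in OB at 1.24 ± 0.15.

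Receptor tyrosine kinases had 8 of 30 measured members higher in OB and 11 lower. Ephrin receptors, which guide axons and migrating cells by repulsion, were called in 9 of 12 genes measured. Epha3 read 9.53, 9.59, 9.53, 9.66 and 9.92 in OB and 7.14, 7.28, 7.22, 7.47 and 7.41 in SEZ, higher in OB by 2.34 ± 0.10, adjusted p = 1.68e-11, and Epha5 by 2.10 ± 0.14. Ephb1 read 7.84, 7.67, 7.66, 7.72 and 7.86 in OB and 9.73, 9.82, 9.82, 9.64 and 9.87 in SEZ and was lower in OB at -2.03 ± 0.085, adjusted p = 8.47e-12; Epha7 was at -1.32 ± 0.12 and Epha8 at -1.41 ± 0.11. Egfr, the receptor of rapidly dividing niche progenitors, was lower in OB at -0.73 ± 0.11.

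Orphan receptors had 3 of 21 measured members higher in OB and 11 lower. Gpr6 read 8.65, 8.24, 8.58, 8.40 and 8.14 in OB and 12.62, 12.07, 12.40, 12.26 and 12.23 in SEZ, 15.1-fold lower in OB (-3.91 ± 0.11, adjusted p = 8.35e-14). Gpr52, which raises cyclic AMP in striatal neurons, was lower at -3.43 ± 0.064, and Gpr83 at -2.48 ± 0.13. Gpr153 was the one with the largest difference higher in OB, 1.12 ± 0.11, adjusted p = 2.97e-07. Beside Lgr5, which stands in no list, its relatives Lgr6 (3.55 ± 0.13) and Lgr4 (1.67 ± 0.15), which also bind R-spondins, were higher in OB.

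Potassium channels had 29 of 86 measured members higher in OB and 22 lower, and 14 of the 86 lay at the low-level reference in both tissues. The beta subunits, which alter gating of the voltage-gated channels, differed in direction. Kcnab3 read 11.66, 11.41, 11.93, 11.46 and 11.51 in OB and 8.18, 8.22, 8.23, 8.12 and 8.36 in SEZ and was 10.3-fold higher in OB (3.37 ± 0.10, adjusted p = 1.45e-13). Kcnab1 read 8.30, 8.53, 7.97, 8.52 and 8.44 in OB and 12.27, 12.35, 12.19, 12.40 and 12.35 in SEZ and was 15.6-fold lower (-3.96 ± 0.10, adjusted p = 8.93e-15). Kcnab2, the third beta subunit, was not called (0.007 ± 0.055). Kcnb2, a delayed rectifier, was higher in OB at 2.67 ± 0.11, and Kcng3, a silent subunit that joins that family, read 7.07, 7.23, 7.22, 7.30 and 6.97 in OB and 10.47, 10.39, 10.39, 10.67 and 10.52 in SEZ, 10.1-fold lower in OB. Kcnip1, a calcium-binding partner of A-type channels, was higher at 2.29 ± 0.18 and Kcnip2 lower at -0.91 ± 0.11. The A-type channel gene Kcnd3 was higher at 1.38 ± 0.071, and Kcnj3, which encodes a channel opened by G proteins, at 2.17 ± 0.13. Of 7 EAG family genes, 5 were higher in OB, Kcnh7 by 1.81 ± 0.17 and Kcnh5 by 1.26 ± 0.087. Of 8 measured alpha subunit genes of the Shaker type, 4 were lower in OB and 0 higher, with Kcna1 at -0.74 ± 0.10.

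Sodium channels had 1 of 12 measured members higher in OB and 5 lower. Scn4b read 6.63, 6.39, 6.60, 6.61 and 6.47 in OB, at the low-level reference, and 12.89, 12.41, 12.82, 12.58 and 12.42 in SEZ, the widest gap of all genes measured. Scn2b, another beta subunit, was lower at -1.50 ± 0.10, adjusted p = 2.79e-09, and the main pore gene Scn2a at -0.58 ± 0.094. Scn1a was not called (0.056 ± 0.071).

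Calcium channels and release channels had 9 of 29 measured members higher in OB and 10 lower. Cacna1g, a T-type channel that opens at low voltage, read 11.34, 11.17, 11.32, 11.33 and 11.38 in OB and 8.29, 8.46, 8.15, 8.66 and 8.47 in SEZ. It was 7.47-fold higher in OB (2.90 ± 0.087, adjusted p = 1.45e-13), and Cacna1d, an L-type channel that supports pacemaking, was higher by 1.35 ± 0.07. Cacng5, an AMPA receptor partner, was at 2.53 ± 0.11. The alpha-2-delta subunits, which carry channels to the membrane and bind gabapentin, divided: Cacna2d1 was higher in OB at 0.67 ± 0.15, and Cacna2d3 was lower, with 8.20, 8.42, 8.16, 8.21 and 8.25 in OB and 11.63, 12.03, 11.78, 11.95 and 11.89 in SEZ, 12.2-fold (-3.61 ± 0.086, adjusted p = 8.00e-15). Cacna2d2 was lower at -1.89 ± 0.11. The ryanodine receptor gene Ryr2 was higher in OB (1.196 ± 0.14) and Ryr3 lower (-1.54 ± 0.12).

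Pacemaker, cyclic nucleotide-gated and TRP channels had 5 of 29 measured members higher in OB and 6 lower (37.9% called, beside 27.5% over all genes). Of the 29, 14 lay at the low-level reference in both tissues. Without SEZ arrays 2 and 4, 7 were called. Hcn4, the slow pacemaker channel of the heart, read 10.01, 9.88, 9.98, 10.06 and 9.92 in OB and 8.45, 8.08, 8.24, 8.37 and 8.14 in SEZ, higher in OB by 1.72 ± 0.076, adjusted p = 1.63e-11. Hcn3 was higher by 0.83 ± 0.10. Trpc4, a receptor-operated cation channel, was higher at 1.999 ± 0.074, and Trpc1 was lower at -1.06 ± 0.061. Among chloride, acid-sensing and purine-gated channels, 7 of 28 were higher in OB and 5 lower. Asic2 was higher at 1.40 ± 0.10 and Asic4 lower at -1.03 ± 0.093. Ano4 was higher at 1.22 ± 0.18, Ano3 lower at -0.88 ± 0.16, and Ano2, the chloride channel of olfactory cilia, was at 7.04 ± 0.14 in OB and 9.61 ± 0.12 in SEZ (adjusted p = 2.60e-13).

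Neuropeptide precursors had 13 of 40 measured members higher in OB and 5 lower, and 10 of 40 lay at the low-level reference in both tissues. Nmb, the precursor of neuromedin B, lay between 9.47 and 10.45 in the OB arrays and read 7.59, 7.53, 7.55, 7.28 and 7.16 in SEZ, higher in OB by 2.46 ± 0.18, adjusted p = 8.64e-09 (5.51-fold). Trh, the precursor of thyrotropin-releasing hormone, was higher at 2.15 ± 0.21, adjusted p = 2.90e-07, and Cck, that of cholecystokinin in tufted cells, at 2.10 ± 0.23, adjusted p = 1.71e-06. Vip was at 8.62 ± 0.37 in OB and 6.81 ± 0.43 in SEZ (adjusted p = 3.42e-06), and Adcyap1, the PACAP gene, at 8.53 ± 0.047 in OB and 6.75 ± 0.19 in SEZ (adjusted p = 1.18e-10). On the SEZ side, Tac1, the precursor of substance P, read 8.51, 7.92, 7.20, 7.80 and 8.80 in OB and 12.19, 12.53, 12.09, 12.63 and 12.61 in SEZ. It was 20.6-fold lower in OB (-4.36 ± 0.26, adjusted p = 6.72e-10). Pdyn, the dynorphin precursor, was lower at -2.67 ± 0.13. Penk, the enkephalin precursor, was at 13.08 ± 0.12 in OB and 13.81 ± 0.047 in SEZ, a difference of -0.73 ± 0.062.

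Sst, the somatostatin precursor, read 10.93, 9.73, 10.20, 9.60 and 10.12 in OB and 12.43, 12.01, 12.52, 12.28 and 12.16 in SEZ, lower in OB at -2.16 ± 0.21, adjusted p = 4.08e-07 (4.48-fold). Th, tyrosine hydroxylase, the first enzyme of dopamine synthesis and the marker of dopaminergic periglomerular cells, read 12.11, 12.50, 12.35, 12.12 and 11.79 in OB and 9.06, 8.998, 8.58, 9.30 and 9.24 in SEZ. It was 8.79-fold higher in OB (3.14 ± 0.15, adjusted p = 5.59e-11). The cAMP response element TGACGTCA, the palindromic site that the activator CREB binds, stands before the start of both genes. Shown here are the 120 bases before each start on the strand of the gene, from RefSeq and GRCm38.p6, at chr7:142899996-142900115 (minus strand) for Th and chr16:23890845-23890964 (minus strand) for Sst, with the element in capitals. They are shown because the same site is shared by genes called in opposite directions.
Th: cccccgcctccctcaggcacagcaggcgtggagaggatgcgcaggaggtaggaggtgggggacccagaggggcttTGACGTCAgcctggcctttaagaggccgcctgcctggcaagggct
Sst: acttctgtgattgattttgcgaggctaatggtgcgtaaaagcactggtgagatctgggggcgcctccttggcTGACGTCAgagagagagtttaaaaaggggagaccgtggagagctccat
The element starts 45 bases before the start of Th and 48 bases before that of Sst. It was searched in the 250 bases before the start, where 1 search covers both strands since it is its own reverse complement, and 478 of 27025 genes in the table hold it (1.77%). Among genes measured the share was 2.33%. Of genes with a promoter in the table and a called difference of 2-fold or more, 9 of 348 higher in OB and 12 of 391 lower in OB held it. Pax6 and the prohormone convertase gene Pcsk1 (higher in OB, 1.41 ± 0.21) were among the former, and Sstr2 and Gpr6 among the latter. A match is a description of the letters and not of binding.

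Precursors and their receptors were then set side by side in 31 textbook pairs, picked after single values had been seen. In 8 pairs both genes were called higher in OB, in 5 both higher in SEZ, in 5 they were called in opposite directions, and in 13 at most 1 was called. Over all genes 12.6% were called higher and 14.9% lower in OB. Of neuropeptide precursors 45% were called, and of neuropeptide receptors 58.7%. Some genes, such as Sst, stand in several pairs. Because the pairs were picked and overlap, the counts do not measure how often ligand and receptor go together. In the first group, Cck (2.10 ± 0.23) and Cckbr (1.93 ± 0.10) are a ligand and its receptor, as are Fgf10 (2.14 ± 0.23) and Fgfr2 (0.53 ± 0.11). Prok2 was at 7.54 ± 0.13 in OB and 6.98 ± 0.13 in SEZ (adjusted p = 2.71e-04), beside the called Prokr2. Crh was at 7.44 ± 0.19 in OB and 6.55 ± 0.27 in SEZ (adjusted p = 5.51e-05), and Nmbr at 8.38 ± 0.51 in OB and 6.98 ± 0.21 in SEZ (adjusted p = 1.41e-05). The natriuretic peptide gene Nppa was at 7.97 ± 0.29 in OB and 6.75 ± 0.063 in SEZ (adjusted p = 2.69e-07) and its receptor gene Npr1 at 8.72 ± 0.19 in OB and 6.93 ± 0.30 in SEZ (adjusted p = 9.18e-09). In the second group stood Pdyn with Oprk1, Penk with Oprm1 (-0.47 ± 0.10), Tgfa (-1.45 ± 0.081) with Egfr, and Sst with Sstr2 (-1.14 ± 0.14) and Sstr4 (-0.60 ± 0.087). Sstr3, the somatostatin receptor of neuronal cilia, was opposite to Sst at 1.29 ± 0.17, adjusted p = 1.41e-05. Galanin and its receptor were opposite too, Gal at 8.10 ± 0.32 in OB and 6.95 ± 0.12 in SEZ (adjusted p = 1.58e-06) and Galr1 at 5.44 ± 0.14 in OB and 6.52 ± 0.28 in SEZ (adjusted p = 8.67e-07). Penk was also opposite to Oprd1, its delta opioid receptor gene (0.48 ± 0.085, adjusted p = 3.02e-04), and Tac2, at 1.16 ± 0.24, to Tacr3, at 6.64 ± 0.12 in OB and 7.82 ± 0.46 in SEZ (adjusted p = 1.81e-05). Vip stood against Vipr1, which was lower in OB at -1.17 ± 0.11, and with Vipr2. For Tac1, whose difference was among the widest, the receptor gene Tacr1 was not called, and its interval ran from -0.14 to 0.26.

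**Figure D4:**
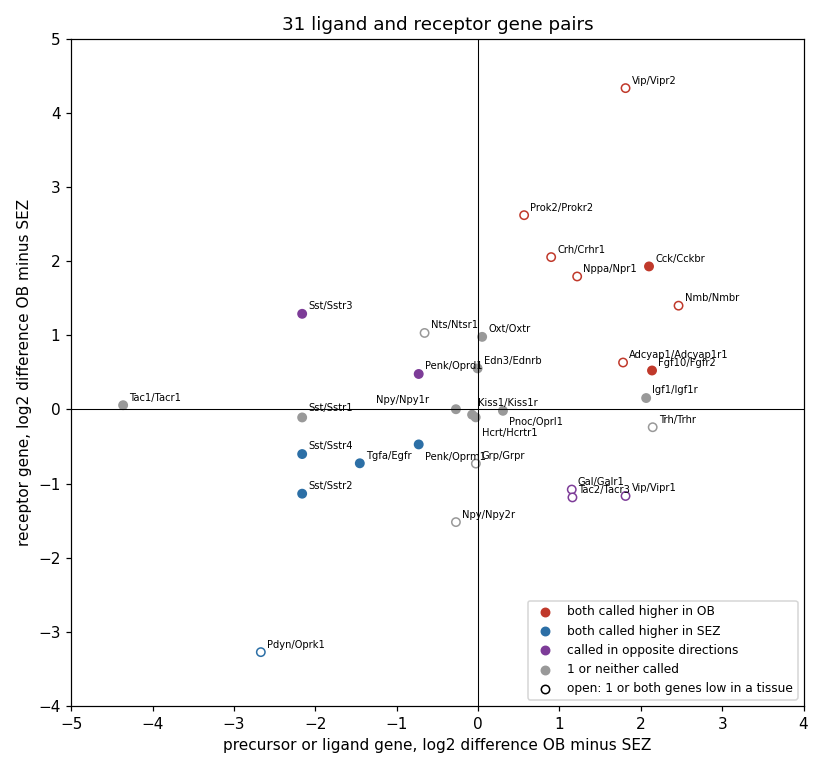
Log2 difference (OB minus SEZ) of a ligand or precursor gene (horizontal) against that of its receptor gene (vertical) for 31 pairs; color gives which genes were called, and open points mark pairs in which 1 or both genes lay at the low-level reference in a tissue, where differences are understated. In 8 pairs both genes are higher in OB and in 5 both are higher in SEZ. The pairs were picked after values had been seen, and some share a gene.

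Granins and peptide-processing genes had 3 of 13 measured members higher in OB and 3 lower. Chgb, a granin of dense-core vesicles, was higher in OB at 0.61 ± 0.081, and Pam, which amidates peptides, lower at -0.52 ± 0.10. Growth factor ligands had 12 of 30 measured members higher in OB and 7 lower, 19 in all, against 11 called without SEZ arrays 2 and 4 and 10 without OB arrays 1, 2 and 3. Igf1 read 9.30, 9.74, 9.32, 9.14 and 8.80 in OB and 7.33, 7.17, 7.05, 7.12 and 7.32 in SEZ, 4.18-fold higher in OB (2.06 ± 0.15, adjusted p = 7.01e-09), while the receptor gene Igf1r was not called (0.15 ± 0.13). Fgf10, at 8.53, 9.23, 8.89, 9.41 and 9.74 in OB and 6.84, 7.43, 6.74, 7.22 and 6.88 in SEZ, did not overlap either. Fgf9 was higher at 0.91 ± 0.10. Tgfa, an Egfr ligand, was lower at -1.45 ± 0.081, adjusted p = 3.23e-10, and Bmp2 lower at -0.75 ± 0.16.

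Glial genes were compared by cell type. All 17 measured genes of myelinating oligodendrocytes were lower in OB, with a median of -1.12. Opalin, a membrane protein of myelin paranodes, read 7.59, 7.86, 7.79, 7.90 and 7.92 in OB and 9.22, 10.48, 9.12, 9.85 and 10.01 in SEZ (-1.92 ± 0.21, adjusted p = 1.52e-06), and SEZ arrays 1 and 3 were the lowest of their group. Mbp, the myelin basic protein gene, was lower at -0.80 ± 0.10 and Mag at -1.26 ± 0.12. Progenitors of these cells had 2 of 13 measured members higher in OB and 4 lower: Lhfpl3 was higher at 0.52 ± 0.11 and Cspg4 was lower at -0.45 ± 0.11. Microglia had 0 of 19 measured members higher in OB and 8 lower, among them the lysosomal gene Cd68 (-0.84 ± 0.13) and the growth factor receptor gene Csf1r (-0.55 ± 0.13), while P2ry12 was not called (-0.066 ± 0.051). The 8 microglial calls were 5 without OB array 3 or SEZ array 4, 2 without OB arrays 1, 2 and 3, and 14 with the replicate number as a block. The 6 calls of progenitors were 3 without OB arrays 1, 2 and 3.

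Astrocyte genes did not move as a block, with 9 of 31 measured members higher in OB and 4 lower and a median of 0.11. Lgr6 read 10.65, 10.65, 10.90, 10.70 and 10.73 in OB and 7.70, 7.08, 7.33, 7.001 and 6.79 in SEZ, 11.7-fold higher in OB (3.55 ± 0.13, adjusted p = 1.72e-12). The GABA transporter gene Slc6a11 was higher by 1.76 ± 0.11 and Fabp7, a fatty acid carrier of radial glia and bulb astrocytes, by 1.72 ± 0.11. Kcnj16, a potassium channel of astrocytes, was higher by 1.48 ± 0.11. Crym, which binds thyroid hormone, read 8.02, 8.27, 8.08, 7.79 and 7.91 in OB and 11.95, 11.95, 11.92, 11.86 and 12.10 in SEZ, 15.4-fold lower in OB (-3.94 ± 0.11, adjusted p = 4.18e-14), and Thbs4 of niche astrocytes was lower at -2.21 ± 0.14, adjusted p = 2.21e-09. The glutamate transporter gene Slc1a2 was lower at -0.64 ± 0.088 and Clu at -0.65 ± 0.072. Gfap, the classical marker, was not called at 0.28 ± 0.18, adjusted p = 0.285, but with the replicate number as a block it was (adjusted p = 0.0283 from limma). Aldoc was not called (-0.022 ± 0.06). Olfactory ensheathing cells, the glia that wrap smell axons, had 3 of 8 genes higher in OB (37.5% called, beside 27.5% over all genes), led by the Wnt inhibitor gene Frzb at 9.78 ± 0.30 in OB and 6.28 ± 0.32 in SEZ (adjusted p = 1.69e-10). Of these 3, 1 was called without OB array 2 or 3 or SEZ array 4 or 5.

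Ependymal genes were 19 of 20 lower in OB, with a median of -0.92, and 6 of 20 lay at the low-level reference in both tissues. Most encode parts of motile cilia. The dynein gene Dnah6 read 6.58, 6.16, 6.10, 6.30 and 6.22 in OB and 9.35, 7.84, 9.59, 8.94 and 8.69 in SEZ, with SEZ array 2 the lowest (adjusted p = 1.52e-07). Foxj1, the factor that starts the cilia program, was lower at -0.41 ± 0.074, adjusted p = 3.33e-04. Within the list Spag6 was the exception, at 7.35 ± 0.18 in OB and 6.86 ± 0.17 in SEZ (adjusted p = 0.00117), with overlapping groups. Its SEZ mean lay under the low-level reference. Its relative Spag6l, outside the list, was called lower in OB by 2-fold or more.

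Cyclic nucleotide enzymes, which make and break the second messengers downstream of dopamine and peptide receptors, had 7 of 36 measured members higher in OB and 17 lower (66.7% called). Adcy5, the main adenylate cyclase of the striatum, read 9.70, 9.83, 9.53, 9.92 and 10.07 in OB and 12.62, 12.70, 12.52, 12.84 and 12.73 in SEZ, 7.32-fold lower in OB (-2.87 ± 0.11, adjusted p = 2.29e-12). Adcy8, which calcium activates, was higher in OB at 2.45 ± 0.18, adjusted p = 1.43e-08, and Adcy2 at 1.48 ± 0.11, adjusted p = 1.22e-08. Pde10a, a phosphodiesterase of striatal neurons, read 9.67, 9.76, 9.75, 9.71 and 9.78 in OB and 13.14, 13.12, 13.28, 13.20 and 13.15 in SEZ, 10.9-fold lower in OB (-3.44 ± 0.061, adjusted p = 3.66e-16), with a narrow spread in both. Of 18 phosphodiesterase genes 10 were lower in OB and 3 higher, Pde4d by 1.15 ± 0.12. Ppp1r1b, which encodes a phosphatase inhibitor that dopamine and cAMP regulate, was lower at -3.85 ± 0.10, adjusted p = 1.01e-14 (14.5-fold).

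Genes for making, moving and clearing transmitters had 11 of 33 measured members higher in OB and 8 lower. Beside Th, the dopamine transporter gene Slc6a3 was higher in OB at 1.93 ± 0.32, adjusted p = 1.59e-04 but uneven, with 10.22, 11.35, 8.90, 9.96 and 9.95 in OB and 8.19, 8.55, 7.51, 7.97 and 8.49 in SEZ. Ddc, the enzyme after Th in dopamine synthesis, was not called at -0.39 ± 0.18, adjusted p = 0.119, but was with the replicate number as a block (adjusted p = 0.0265 from limma) and without SEZ array 3 (0.0361). Slc17a7 was higher in OB at 2.91 ± 0.39, adjusted p = 1.43e-05, and without SEZ arrays 2 and 4, whose levels stood above the others, at 3.75. Leaving out those arrays raises the Slc17a7 difference by construction. Genes of cholinergic neurons were lower in OB: the choline transporter gene Slc5a7 was at 6.36 ± 0.17 in OB and 9.22 ± 0.32 in SEZ (adjusted p = 7.54e-11), Chat, which makes acetylcholine, at 6.61 ± 0.13 in OB and 7.91 ± 0.23 in SEZ (adjusted p = 2.87e-08), and the vesicular transporter gene Slc18a3 was lower at -1.53 ± 0.17. The enzymes and transporter of GABA differed from one another. Gad1 read 13.05, 13.19, 13.18, 13.27 and 13.28 in OB and 12.01, 12.15, 11.97, 12.15 and 12.13 in SEZ, higher in OB by 1.11 ± 0.062, adjusted p = 3.01e-10, while Gad2 (-0.11 ± 0.085) and the vesicular transporter gene Slc32a1 (-0.0002 ± 0.094) were not called, with intervals from -0.29 to 0.068 and from -0.20 to 0.20. The monoamine oxidase gene Maob was lower at -1.005 ± 0.12.

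Of 77 genes of the respiratory chain and ATP synthase, 2 were higher in OB and 6 lower, which is 10.4% beside 27.5% over all genes, and the median was -0.026. These 8 calls were 4 without OB array 1 or SEZ array 4, 5 without SEZ array 5, 1 without OB arrays 1, 2 and 3, and 14 with the replicate number as a block. Cyc1, of complex III, was at 0.29 ± 0.07, adjusted p = 0.00399, and Cox6a2, an isoform of muscle and some neurons, at -0.44 ± 0.092, adjusted p = 0.00132. Glycolysis genes had 4 of 22 measured members higher in OB and 6 lower (45.5% called), within -0.89 and 0.55. The lactate dehydrogenase genes were opposite, Ldhb higher in OB by 0.34 ± 0.066, adjusted p = 7.12e-04 and Ldha lower at -0.43 ± 0.073, adjusted p = 2.26e-04. With the mean of its probe sets in place of the brightest, Ldhb was not called (0.30, adjusted p = 0.108 from limma). The citrate cycle had 6 of 26 measured members higher in OB and 4 lower (38.5% called), within -0.39 and 0.34. Its 10 calls were 3 after median centring of each array, 5 without OB array 2, 6 without OB array 5, 2 without OB arrays 1, 2 and 3, and 17 with the split of arrays 1 and 3 from 2, 4 and 5 as a block. Pygm, a glycogen phosphorylase, was higher in OB at 1.02 ± 0.091, adjusted p = 1.29e-07, 1 of 14 glycogen and pentose phosphate genes to be so (4 of the 14 were called, or 28.6%, and 9 with the replicate number as a block). Ampd2, an AMP deaminase, was higher at 1.48 ± 0.08, adjusted p = 2.07e-10.

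Of lipid genes, cholesterol genes had 1 of 20 measured members higher in OB and 4 lower (25% called), with Msmo1 lower at -0.64 ± 0.13 and the cholesterol exporter gene Abca1 higher at 0.67 ± 0.17. Of 36 fatty acid and sphingolipid genes, 7 were higher and 9 lower in OB (44.4% called). The ceramide synthases split, Cers6 higher at 0.88 ± 0.064, adjusted p = 8.76e-09 and Cers2 lower at -0.66 ± 0.13, adjusted p = 6.02e-04. Fa2h (-1.33 ± 0.10) and Ugt8a (-1.204 ± 0.23), which make the galactolipids of myelin, were lower. Serine and glycine genes had 5 of 19 measured members higher in OB and 9 lower. Phgdh (-0.65 ± 0.11) and Psat1 (-0.75 ± 0.092), successive steps of serine synthesis, and Gatm (-0.68 ± 0.11) and Gamt (-1.38 ± 0.16), successive steps of creatine synthesis, were all lower in OB. Bcat1, which transaminates branched-chain amino acids, was higher at 1.06 ± 0.16, adjusted p = 6.70e-05.

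Genes that handle retinoids, steroids and thyroid hormone had 2 of 20 measured members higher in OB and 7 lower. The retinol carrier gene Rbp4 read 7.39, 7.13, 7.20, 7.11 and 7.42 in OB and 9.50, 9.05, 9.50, 9.71 and 9.30 in SEZ, lower in OB at -2.16 ± 0.13, adjusted p = 8.44e-10 (4.47-fold), and its membrane receptor gene Stra6 was lower at -0.75 ± 0.13. Crym, and Rarb, Rxrg and Thrb of other lists, were higher in SEZ too. Of the 20 measured members 11 were not called, among them Crabp1 and Aldh1a1. Crabp2, a carrier of retinoic acid, was higher in OB at 0.74 ± 0.12, and Aldh1a3 at 0.28 ± 0.083, with overlapping groups. Ttr, at 7.01 ± 0.33 in OB and 9.23 ± 1.52 in SEZ, overlapped between tissues and was uneven among the SEZ arrays (adjusted p = 0.00579, and 0.0567 from limma without arrays 2 and 4, where the difference was -1.21). Those arrays were the highest for Ttr, so leaving them out narrows its difference by construction.

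Carbonic anhydrases, metal-handling and antioxidant genes had 4 of 52 measured members higher in OB and 13 lower. This is 32.7% called, near the 27.5% over all genes, and 8 of 52 lay at the low-level reference in both tissues. Car10, a carbonic anhydrase relative without catalytic activity, read 11.04, 10.96, 10.97, 10.85 and 10.93 in OB and 8.04, 8.08, 7.46, 8.93 and 8.50 in SEZ, 6.72-fold higher in OB (2.75 ± 0.20, adjusted p = 1.01e-08). The membrane enzyme gene Car12 was lower at -1.16 ± 0.13, adjusted p = 1.50e-06, and the transferrin gene Trf at -1.03 ± 0.12. Gpx6, a glutathione peroxidase, was at 6.503 ± 0.63 in OB and 9.98 ± 0.37 in SEZ (adjusted p = 8.50e-09).

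In some families, members differed in direction. Of 42 gene families picked after values had been seen, 31 had members called both ways, 6 only higher in OB and 5 only lower. The families were of unlike size, from 3 to 20 measured genes, and larger ones had more chances to hold both. Over all genes 12.6% were called higher and 14.9% lower in OB. Because the families were picked, the count does not measure how common this is among families at large. Calb2 and Calb1 are calcium-binding proteins of the same fold: Calb1, calbindin, read 8.52, 8.86, 8.26, 7.76 and 7.96 in OB and 11.84, 12.01, 11.87, 12.31 and 12.15 in SEZ, 13.6-fold lower in OB (-3.76 ± 0.16, adjusted p = 1.07e-11). Gng4 read 12.97, 12.95, 12.996, 13.004 and 13.02 in OB and 9.86, 9.44, 9.19, 9.39 and 9.55 in SEZ, 11.3-fold higher (3.50 ± 0.11, adjusted p = 2.44e-13), and Gng7, a partner of the striatal G protein that couples to Adcy5, read 10.34, 9.48, 9.76, 9.13 and 9.49 in OB and 13.49, 12.85, 13.41, 13.07 and 12.99 in SEZ, 11.5-fold lower (-3.52 ± 0.18, adjusted p = 1.18e-10). Among families called in 1 direction only, 3 of 4 cerebellin genes, which bridge synapses, were higher in OB, Cbln2 by 2.68 ± 0.13 and Cbln4 by 1.25 ± 0.17. Kv3 potassium channels had 2 of 3 higher, Kcnc2 by 1.61 ± 0.22 and Kcnc1 by 0.96 ± 0.087.

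**Figure D5:**
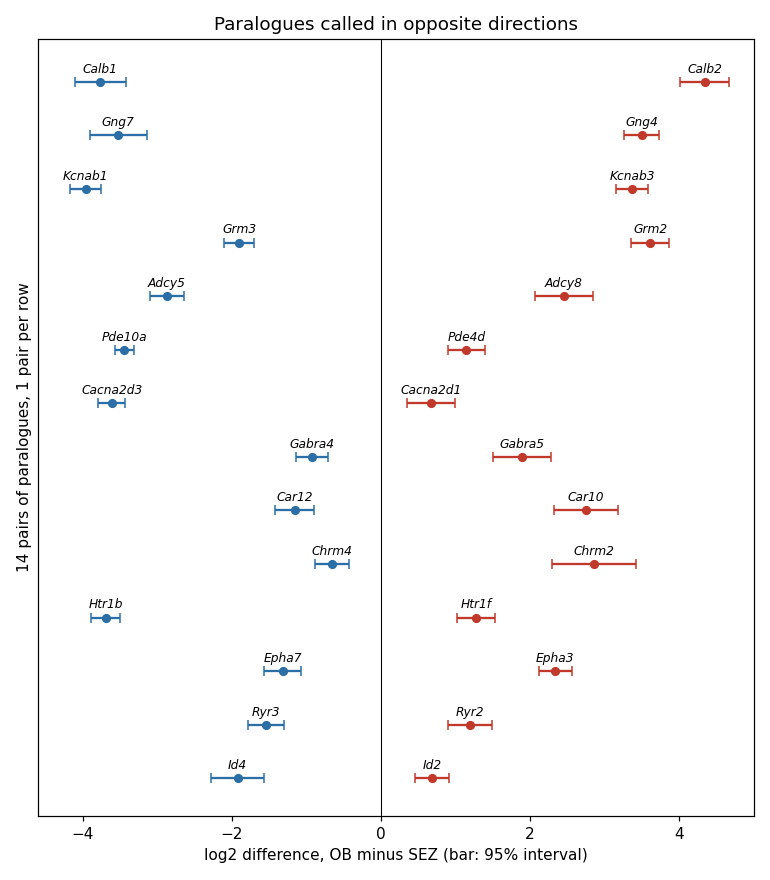
Log2 difference (OB minus SEZ) with its 95% interval for 14 pairs of related genes, 1 pair per row, chosen after values had been seen as pairs called in opposite directions. Red points are higher in OB and blue points higher in SEZ.

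The array also carried 296 genes of microRNAs, short RNAs that silence messenger RNAs through bases 2 to 8, the seed. Of these, 27 were called higher and 6 lower in OB, 11.1% beside 27.5% over all genes. In 21 of the 33 the lower tissue lay at or under the low-level reference, which includes any that were low in both. Probe sets of such genes do not tell the mature RNA from its precursor. The mature sequences of 3 that are background for neurons and glia are shown 5′ to 3′ from RefSeq, with the seed in capitals; the genes were picked after values had been seen.
miR-219a-5p: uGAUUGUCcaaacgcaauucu
miR-9-5p: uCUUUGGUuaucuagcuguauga
miR-128-3p: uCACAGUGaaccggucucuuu
The first is known from oligodendrocyte maturation, the second from neural progenitors and the third from neurons, and no seed is shared among them. Mir219a-2 read 7.93, 7.36, 7.76, 7.62 and 7.35 in OB and 8.57, 8.55, 8.61, 8.06 and 8.23 in SEZ, lower in OB at -0.80 ± 0.15, adjusted p = 4.10e-04, the direction of the 17 myelin genes. Mir9-3 was at 7.19 ± 0.21 in OB and 6.35 ± 0.18 in SEZ (adjusted p = 7.24e-05). Mir128-1 (0.71 ± 0.18, adjusted p = 0.00540) and Mir128-2 (0.41 ± 0.12, adjusted p = 0.0182), which give the same mature miR-128-3p, were both higher in OB with overlapping groups, and the call of Mir128-2 was lost without SEZ array 4 (adjusted p = 0.0557 from limma) or 5 (0.0567). They lie within the genes R3hdm1 and Arpp21, which were higher in OB as well, by 0.60 ± 0.14, adjusted p = 0.00259 and 0.52 ± 0.066, adjusted p = 1.00e-05.

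The tissue difference was also read in the 6 cKO arrays, which are other samples. Over all 19938 genes, 4614 were called between the cKO tissues (23.1%), with 3 arrays per tissue. Of the 5491 genes called in controls, 5465 had the same sign in cKO and 4056 were called the same way. All 966 with a called 2-fold difference had the same sign, and 957 were called. Between the genotypes the tissue difference itself was called as different in 1 gene of 19938 (0.00502%), Islr2, which was not called between the control tissues (-0.21 ± 0.094). Some estimates differed in size without such a call. Prokr2 was at 2.62 in controls and 1.06 in cKO, and Slc17a7 at 2.91 in controls and 4.38 in cKO.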

How the data were processed

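RNA of 16 mouse samples was hybridised to 1-colour arrays and normalised by RMA in Affymetrix Expression Console 1.2, per the submitters' processing notes. The deposited log2 values per probe set were used as given, with no further normalization. No genome build is given in the sources used here. The number of arrays and the low-level reference set the precision. Of 35556 probe sets, 21789 carried 1 gene symbol, 1621 several and 12146 none. The brightest probe set stood for each of 999 genes with several, leaving 19938 genes. The tables held 0 columns of other samples.

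limma 3.58.1 in R 4.3.3 was fitted to all 16 arrays in 4 groups (12 residual degrees of freedom), and the control tissues were contrasted with a two-sided test and Benjamini-Hochberg adjustment over all genes, called at 0.05. The model was run on simulated data with independent noise in each array. Such data lack the correlation between same-number samples given below, so the run does not test the unpaired fit on that point. The members, gene lists and the rule for named genes were chosen with earlier results of these data known. The rule took, per list, up to 4 passing members a direction and up to 2 nearest 0 among members above the median level, passing or not. Over all genes it took the 15 widest differences a direction above the low-level reference, and families could be named in full where subunits were compared. The text also names list members beyond the rule, such as Pax6 and Etv1, and leaves out some that it took, such as Gsx2. Ligand and receptor pairs, families, promoters, microRNAs and genes of the last part were picked after values had been seen. Gene symbols were matched to RefSeq tables (21698 probe sets), from which the sequences came.

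Control samples of the 2 tissues share replicate numbers. Deviations from the tissue means correlated, for numbers 1 to 5, at 0.33, 0.36, 0.57, 0.17 and 0.47. All were above the 0.1 taken to mean that the numbers pair the samples. Some samples of unlike number passed it too, while others were negative. OB 3 with SEZ 1 was at 0.41, OB 5 with SEZ 4 at 0.42 and OB 2 with SEZ 5 at 0.32. Values over 0.1 therefore cannot tell pairing by number from the split of arrays 1 and 3 from 2, 4 and 5. Levels of Xist and Kdm5d split the numbers in the same way in both tissues. The fit reported has no term for the number, so every printed error, p-value and count leaves any pairing out unless the block is named. The fit with the number as a block is given beside a result where it changed a call. OB replicate 1 correlated best with SEZ replicate 3, and the genotype label of number 5 differed between tissues. Alternatives covered the arrays fitted, the block, normalization, weights, probe set choice, thresholds and single arrays left out.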

Additional observations from a re-analysis of the deposited data

Results flagged for a closer look

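In 21 of 558 groups tested 1 control array of a tissue lay far from the other 4 for a gene named in the text, by Dixon's test at the 95% level, which chance alone sets off in about 1 of 20 groups, or 27.9 here, so the number is no higher than chance gives. OB control array 1 stood alone as the highest for Doc2b at 8.42 (others 7.57 to 7.74) and Htr1d at 8.12 (others 7.59 to 7.74). OB control array 1 stood alone as the lowest for Foxj1 at 7.70 (others 7.85 to 7.88). OB control array 2 stood alone as the highest for Aldoc at 13.12 (others 12.99 to 13.01). OB control array 2 stood alone as the lowest for Cacna1g at 11.17 (others 11.32 to 11.38). OB control array 3 stood alone as the highest for Cacng5 at 11.88 (others 11.34 to 11.49) and P2ry12 at 8.33 (others 8.24 to 8.26). OB control array 3 stood alone as the lowest for Chrna7 at 8.54 (others 8.73 to 8.78), Emx2 at 6.98 (others 7.26 to 7.33), Id4 at 9.01 (others 9.67 to 9.90) and Slc1a2 at 12.02 (others 12.38 to 12.49). OB control array 4 stood alone as the highest for Adra2c at 8.29 (others 7.97 to 8.01) and Ttr at 7.58 (others 6.76 to 6.96). OB control array 5 stood alone as the lowest for Cox6a2 at 8.07 (others 8.31 to 8.38) and Doc2g at 11.55 (others 11.83 to 11.93). SEZ control array 1 stood alone as the highest for Oprm1 at 8.35 (others 7.89 to 8.01) and Pparg at 7.59 (others 7.24 to 7.32). SEZ control array 1 stood alone as the lowest for Gria4 at 10.02 (others 10.12 to 10.15). SEZ control array 2 stood alone as the lowest for Mchr1 at 10.56 (others 10.69 to 10.73) and Penk at 13.73 (others 13.81 to 13.85). SEZ control array 3 stood alone as the highest for Cpa6 at 6.40 (others 6.16 to 6.21).

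Islr2, which encodes a leucine-rich membrane protein of axons, was the gene whose tissue difference was called as different between cKO and control mice. The OB minus SEZ difference was -1.41 in cKO and -0.21 ± 0.094 in controls, and the difference between them was -1.21, adjusted p = 0.012 in limma. Without OB control array 5 the control difference was called too, at -0.27, adjusted p = 0.0355 in limma.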

How the results depend on the processing

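The 5491 calls were 4910 to 5516 when 1 array was left out. They were 5414 in the fit of the 10 control arrays alone, 3930 at an adjusted p under 0.01 and between 4182 and 7368 under the other alternatives, with these exceptions. A limma test for a difference beyond 2-fold (treat) called 499 genes, 245 higher and 254 lower in OB. Without OB arrays 1, 2 and 3, 3630 were called, 1680 higher and 1950 lower, with fewer samples. Blocking on the replicate number gave 6807 calls, 3193 higher and 3614 lower, and of the genes named in the text the block changed the calls of Dlx6, Ddc and Gfap and no other. After median centring of each array the median of all differences was -0.03 and 39.7% of calls were higher in OB, against 45.75% as deposited. Arrays with numbers 1 and 3 alone gave 4334 calls, and 2, 4 and 5 alone 6103; these splits and the arrays left out together were chosen after seeing the data.

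Of 279 genes named, 8 changed sign in at least 1 alternative. Of these, Dlx6 alone was called, and the others but Dcn lay within -0.04 and 0.06. The values were, without OB arrays 1, 2 and 3, Dcn at -0.12, Kcnab2 at -0.033 and Slc32a1 at 0.16; with only arrays 1 and 3, Dlx6 at 0.041, Grin2b at -0.13, Tacr1 at -0.13 and Vax1 at -0.14. They were, with array weights, Drd4 at 0.064 and Grin2b at -0.044; with only arrays 2, 4 and 5, Drd4 at 0.12 and Slc32a1 at 0.057. They were, with median centring, Grin2b at -0.026, Kcnab2 at -0.026 and Vax1 at -0.030; without SEZ arrays 2 and 4, Kcnab2 at -0.020, Slc32a1 at 0.035 and Vax1 at -0.054; with cyclic loess, Slc32a1 at 0.0049 and Vax1 at -0.0086. When single arrays were left out, Drd4 ran from -0.097 to 0.048, Grin2b ran from -0.069 to 0.099, Kcnab2 ran from -0.018 to 0.036, Slc32a1 ran from -0.041 to 0.063, Tacr1 ran from -0.00035 to 0.12 and Vax1 ran from -0.038 to 0.039. The cause was not tested. With only arrays 1 and 3, calls of Cers2, Gatm, Ldha, Ldhb, Mir128-1, Mir128-2, Oprd1, Oprm1, Sstr3 and Ttr were lost, and with only arrays 2, 4 and 5 those of Mir128-1 and Omp. Counts of list members called moved by over 1.5 times as follows. At an adjusted p under 0.01 they were 7 for HCN and TRP channels, 12 for growth factor ligands, 1 for olfactory ensheathing cells, 3 for microglia, 4 for citrate cycle and pyruvate entry, 4 for respiratory chain and ATP synthase and 9 for fatty acid and sphingolipid enzymes. With array weights they were 8 for glycogen and pentose phosphate, 16 for respiratory chain and ATP synthase and 2 for meningeal fibroblasts. After median centring they were 3 for citrate cycle and pyruvate entry and 1 for meningeal fibroblasts. With arrays 1 and 3 against 2, 4 and 5 as a block they were 13 for microglia, 9 for glycogen and pentose phosphate, 17 for citrate cycle and pyruvate entry, 15 for respiratory chain and ATP synthase, 26 for carbonic anhydrases and antioxidants and 3 for meningeal fibroblasts. Without SEZ arrays 2 and 4 they were 7 for HCN and TRP channels, 11 for growth factor ligands, 5 for microglia, 5 for respiratory chain and ATP synthase and 4 for endothelial and mural cells. Without OB arrays 1, 2 and 3 they were 10 for growth factor ligands, 3 for oligodendrocyte progenitors, 2 for microglia, 6 for glycolysis and lactate, 2 for glycogen and pentose phosphate, 2 for citrate cycle and pyruvate entry, 1 for respiratory chain and ATP synthase, 7 for fatty acid and sphingolipid enzymes, 8 for amino acid enzymes, 11 for carbonic anhydrases and antioxidants and 3 for olfactory sensory neurons. With only arrays 1 and 3 they were 12 for growth factor ligands, 4 for microglia, 6 for glycolysis and lactate, 4 for citrate cycle and pyruvate entry, 3 for cholesterol synthesis and handling, 7 for fatty acid and sphingolipid enzymes, 4 for purine and creatine enzymes, 4 for endothelial and mural cells and 1 for meningeal fibroblasts. With only arrays 2, 4 and 5 they were 12 for growth factor ligands, 1 for olfactory ensheathing cells, 8 for glycogen and pentose phosphate, 15 for respiratory chain and ATP synthase, 3 for olfactory sensory neurons and 1 for meningeal fibroblasts. Calls of Bmp2, Csf1r, Cspg4, Cyc1, Dlx6, Fezf2, Id1, Lhfpl3, Mir128-2, Omp, R3hdm1 and Ttr were lost without OB arrays 1, 2 and 3. Called genes with a tissue at the low-level reference numbered 859, or 470 with the lower quartile of all genes as the reference. Signal near background limits such genes, whose differences are understated.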

Other observations

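Genes outside the lists of transcription factors, receptors, channels, peptides, glia and metabolism also differed widely, and those named here were chosen after their values had been seen. Rspo3, a ligand of the Lgr receptors, read 9.04, 9.33, 9.22, 9.50 and 9.53 in OB and 7.19, 7.10, 7.12, 7.27 and 7.33 in SEZ, higher in OB by 2.12 ± 0.12, adjusted p = 3.56e-10, beside the 3 Lgr genes that were higher there. Wnt5a, a ligand of the noncanonical Wnt pathway, was higher by 2.11 ± 0.092, adjusted p = 1.48e-11, Sema3c, a secreted guidance cue, by 2.74 ± 0.23, and Ndnf, a secreted neuron-derived factor, by 3.01 ± 0.15. Dcx, the microtubule protein doublecortin of migrating neuroblasts, read 11.95, 11.87, 11.80, 11.93 and 12.12 in OB and 9.69, 9.89, 10.12, 9.69 and 9.74 in SEZ. The groups did not overlap, and the difference was 2.11 ± 0.081, adjusted p = 3.21e-12 (4.31-fold). Sp7, a zinc finger factor best known from bone-forming cells, was higher in OB at 2.76 ± 0.14, adjusted p = 6.48e-11. Homer2, a scaffold of metabotropic glutamate receptors, was higher at 2.86 ± 0.19, and Slc8a1, a sodium-calcium exchanger, at 2.25 ± 0.29.

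In the other direction, Unc13c, which primes synaptic vesicles, read 8.41, 8.34, 8.12, 8.10 and 8.19 in OB and 11.31, 11.59, 11.32, 11.59 and 11.72 in SEZ, lower in OB at -3.27 ± 0.13, adjusted p = 2.99e-12. Doc2b, a calcium sensor of vesicle release, was lower at -3.11 ± 0.18, adjusted p = 3.59e-10, while its relative Doc2g was among the genes furthest above 0. Lrrk2, the kinase gene of familial Parkinson disease, was lower in OB at -2.70 ± 0.14, adjusted p = 1.78e-10, and Mme, the peptide-degrading neprilysin gene, at -2.96 ± 0.14, adjusted p = 5.59e-11. Dach1, a transcription cofactor, was at 6.88 ± 0.066 in OB and 10.59 ± 0.16 in SEZ (adjusted p = 3.16e-15), and Sh3rf2, which encodes a ubiquitin ligase, at 6.43 ± 0.16 in OB and 11.25 ± 0.24 in SEZ (adjusted p = 3.31e-15).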
